A study of Argopecten irradians concentricus with 9 samples.

Results

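Alpha-crystallin B chain and heat shock protein beta-8 (HSPB8) are the names given to the most abundant small heat shock gene models in the adductor muscle of the bay scallop Argopecten irradians concentricus. They are 2 of the 28864 gene models in the deposited table, taken by their identifiers, evm.TU.Contig124.136 and evm.TU.Contig325.41. Their abundance was part of how they were picked, so their high levels are a description and not a result. RNA sequencing covered 9 libraries of the adductor, which pulls the valves shut, from scallops of 1 year of age. The groups were room, high and low temperature with 3 libraries each, and the labels give no degrees, no duration and no other treatment or genotype. RNA was isolated per tank, and the labels leave unsaid whether replicate libraries stand for different animals or tanks. The p-values therefore cover only the spread among these libraries, which may be technical.

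Small heat shock proteins are chaperones built around an alpha-crystallin (Hsp20) domain. They bind partly unfolded proteins without using ATP and hold them in a form that the ATP-driven HSP70 system, with its DnaJ co-chaperones, can refold. In vertebrates alpha-crystallin B is a major protein of the eye lens and is also abundant in striated muscle, where it binds actin and proteins of the Z-disc, the plate that anchors thin filaments. In mammalian muscle HSPB8 works with the co-chaperone BAG3 and HSP70 to pass damaged filamin and other strained proteins to autophagy. These roles come from vertebrates, and the names in the scallop table are best protein matches, which state similarity only.

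The tissue label was checked against its markers. The 14 gene models of a list of adductor muscle markers, of which 8 passed the filter on low values, summed to between 62923 and 172156 FPKM in every library. FPKM is the number of fragments scaled by gene model length and by library depth, so levels of different genes can be set side by side. Lists for cilia, digestive gland, gonad, nerve and shell tissue summed to 135 FPKM at most in any library. A haemocyte list summed to 438 to 1397 FPKM. Library totals ran from 11716140 to 16229040 assigned reads, and in a principal component analysis replicate 3 of high temperature stood apart, at 52 on the first axis against -28.5 to 13.8 for the rest, as did replicate 3 of low temperature on the second, at -42.9 against -12.8 to 21.1.

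The alpha-crystallin B model carries an Hsp20 domain and lies on the minus strand of Contig124 from 2835149 to 2837049. Its length of 1901 bases equals its span on the contig, so the model has no intron. The HSPB8 model also carries an Hsp20 domain and runs from 1342492 to 1350187 on the plus strand of Contig325, with 3174 bases of model in a span of 7696, so its model is interrupted. Coordinates are those of the deposited table, whose genome build is not given in the sources used here. Neither neighbours another small heat shock gene. The models on either side of alpha-crystallin B are an unnamed model, 2109 bases away with a mean of 2.37 FPKM, and evm.TU.Contig124.137, 6697 bases away with a mean of 0.992 FPKM. On Contig325 the neighbours of HSPB8 are evm.TU.Contig325.40, 11869 bases away with a mean of 0.0544 FPKM, and a match to mannose-binding protein A, a lectin, 25000 bases away with a mean of 1.27 FPKM. All of these neighbours were thus listed far below the small heat shock gene beside them, and the pair that passed the filter correlated with it at -0.0403 for the unnamed model beside alpha-crystallin B and -0.116 for mannose-binding protein A over the 9 libraries.

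Alpha-crystallin B was listed at 1849, 6246 and 5580 FPKM in room temperature replicates 1, 2 and 3. At high temperature the values were 2743, 2345 and 3903 FPKM, and at low temperature 5135, 3073 and 3924 FPKM. The lowest and the highest library were both at room temperature, so the other groups lay within the room temperature range and no pair of groups was apart. In reads, the gene took 0.387% of the assigned reads in room temperature replicate 1 and 1.35% in low temperature replicate 1, its lowest and highest shares. Its rank by FPKM among all gene models ran from 13 in low temperature replicate 1 to 96 in room temperature replicate 1.

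HSPB8 was listed at 259, 499 and 192 FPKM at room temperature, at 204, 133 and 172 FPKM at high temperature and at 297, 331 and 279 FPKM at low temperature. By FPKM all 3 high temperature libraries lay below all 3 low temperature libraries. Room temperature overlapped with both, since its replicate 3 lay among the high temperature libraries and its replicate 2 was the highest of the 9. HSPB8 ranked between 188 and 343 among all gene models. In reads, the gene took 0.0907%, 0.0520% and 0.0355% of the assigned reads at high temperature. At low temperature it took 0.131%, 0.0965% and 0.0769%. By this share high temperature replicate 1 lay above low temperature replicate 3, so the separation by FPKM depends on the scaling between libraries.

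**Figure D1:**
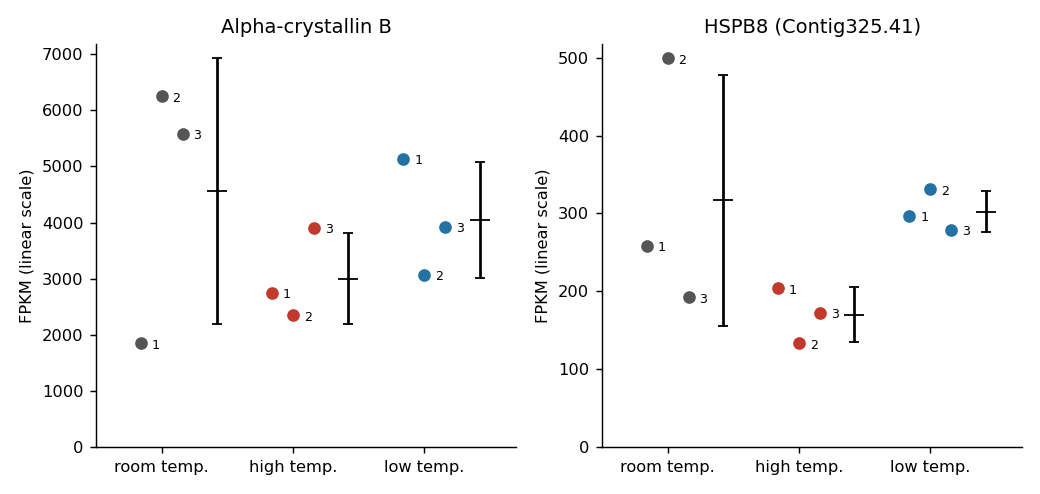
FPKM of alpha-crystallin B (left) and HSPB8 (right) in each library on a linear axis, with the replicate number beside each point and the mean ± SD of the group (n = 3) as a black bar. The room temperature group is the widest for both genes. By FPKM, but not by share of assigned reads, the high and low temperature libraries separate for HSPB8 only.

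The first question was whether either gene differs between temperatures. Neither passed the test in any of the 3 comparisons. Tests were run with limma on log2(FPKM + 1) over all 8624 gene models with a mean of at least 1 FPKM, so changes below are on that scale, and a call needs an adjusted p (Benjamini-Hochberg) below 0.05. Mean levels of alpha-crystallin B were 4558 ± 2370.1 FPKM at room, 2997 ± 809.5 at high and 4044 ± 1036 at low temperature (SD, n = 3 each). On the log2 scale its change was -0.02 for low minus room (95% interval -1.05 to 1.02, limma adjusted p = 0.993), where 0.151% of all tested genes were called. For high minus room it was -0.45 (95% interval -1.49 to 0.58, limma adjusted p = 0.797), where 0% of all genes were called. For high minus low it was -0.43 (95% interval -1.47 to 0.60, limma adjusted p = 0.781), where 0.162% were called. These intervals reach from a fold of 0.356 to 2.02, so the data do not show that alpha-crystallin B stays level. In bulk muscle, fewer cells of a type and less RNA per cell cannot be told apart. With all 3 groups asked at once, limma's moderated F gave an adjusted p = 0.852.

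The size of the high minus room value rests on the room temperature libraries. Without room temperature replicate 1 the log2 change was -1.01 (limma adjusted p = 0.598), and the leave-one-out values ran from -1.01 to -0.13. For low minus room they ran from -0.58 to 0.30, so its sign depends on which library is left out.

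Mean levels of HSPB8 were 317 ± 162 FPKM at room, 170 ± 35.1 at high and 302 ± 26.4 at low temperature (SD, n = 3 each). The log2 change for high minus low was -0.85 (SE 0.359, 95% interval -1.64 to -0.06), a fold of 0.556. Its unadjusted limma p was 0.0381 and its limma adjusted p = 0.385, so it did not pass. Over all tested genes, 8.45% lay lower at high than at low temperature with no overlap, and 5.45% were lower with an unadjusted p under 0.05. The change for high minus room was -0.80 (95% interval -1.59 to -0.01, limma adjusted p = 0.519, unadjusted p = 0.0479), a comparison in which 4.87% of genes were lower at an unadjusted p under 0.05. For low minus room it was 0.05 (95% interval -0.74 to 0.84, limma adjusted p = 0.982). The moderated F over the 3 groups gave a limma adjusted p = 0.469. The comparisons high minus room and high minus low share the same high temperature libraries and are not independent.

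How the pair moves together was asked next. Per length, alpha-crystallin B exceeded HSPB8 in every library, by 7.15, 12.5 and 29.0 times at room, 13.5, 17.6 and 22.7 times at high and 17.3, 9.28 and 14.1 times at low temperature. The ratio varied most at room temperature, where both its lowest and its highest value lay. Over the 9 libraries the log2 levels of the 2 genes had a Pearson r of 0.434 (exact permutation p = 0.244, adjusted p = 0.888 over 5 relations) and a Spearman rho of 0.433 (exact permutation p = 0.25, adjusted p = 0.912). Without room temperature replicate 1 and high temperature replicate 2, the libraries farthest from the median of alpha-crystallin B, r was 0.372. With the group means removed it was 0.257, and 3 libraries per group are too few for a correlation within a group. The relation was thus not detectable with 9 libraries.

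The other relations in that family set both genes against the abundance of contractile transcripts and of the most abundant transcripts. Against the summed FPKM of 75 contractile and Z-disc gene models, alpha-crystallin B had r = 0.243 (exact permutation p = 0.533, adjusted p = 0.888; Spearman rho = 0.2, exact permutation p = 0.613, adjusted p = 0.912). HSPB8 had r = -0.00407 (exact permutation p = 0.992, adjusted p = 0.992; Spearman rho = -0.05, exact permutation p = 0.912, adjusted p = 0.912). With replicate 3 of high and replicate 1 of low temperature left out, the libraries farthest from the median contractile sum, these values were 0.56 and 0.541. The contractile sum and both genes are deposited FPKM and share 1 scaling between libraries. How much of each r comes from that scaling was not tested. Against the percent of reads in the 50 most abundant gene models, alpha-crystallin B had r = 0.315 (exact permutation p = 0.403, adjusted p = 0.888; Spearman rho = 0.233, exact permutation p = 0.552, adjusted p = 0.912). HSPB8 had r = 0.0133 (exact permutation p = 0.973, adjusted p = 0.992; Spearman rho = 0.05, exact permutation p = 0.912, adjusted p = 0.912). Without high temperature replicates 1 and 3 these were 0.268 and 0.229. None of the 5 relations passed.

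**Figure D2:**
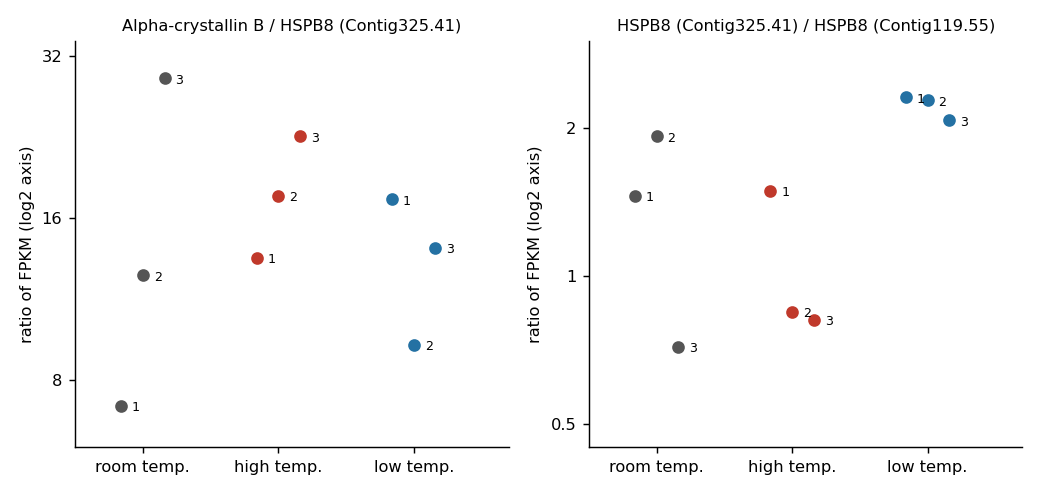
Ratio of FPKM of alpha-crystallin B to HSPB8 (left) and of HSPB8 to a further gene model of that name on Contig119 (right) in each library, on log2 axes, with replicate numbers beside the points. On the left the groups overlap, and on the right the 3 low temperature libraries, at 2.07 to 2.31, lie above the other 6.

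The rest of the family was read from a list of 8 gene models taken by protein name or Hsp20 domain. Of these, 7 carry the domain, and the other is the mitochondrial 10 kDa heat shock protein, a partner of the chaperonin HSP60 that the name pattern took in and that is no small heat shock protein by structure. Alpha-crystallin B made up 80.0% to 92.1% of the summed FPKM of the 7 domain models, and with HSPB8 91.2% to 97.4%. The sum itself ran from 2311 FPKM in room temperature replicate 1 to 7053 in room temperature replicate 2. Of the 7 models, 5 have no intron, alpha-crystallin B among them, while the interrupted ones are both models named HSPB8. Among all gene models 17.4% have no intron, and among the tested ones 7.47%.

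No member of the list passed the test in any comparison. By limma, 0 of the 7 tested members were called for low minus room, 0 for high minus room and 0 for high minus low, against 0.151%, 0% and 0.162% of all tested genes. Before adjustment, p was under 0.05 for 2 lower and 0 higher members in low minus room, where 4.81% of all genes were lower and 3.35% higher by that rule. In high minus room it was so for 2 lower and 0 higher members, beside 4.87% and 4.7% of all genes. In high minus low it was so for 1 lower and 3 higher members, beside 5.45% and 6.42%. The lower member was HSPB8 on Contig325. The higher ones were the mitochondrial 10 kDa protein and 2 models on Contig6, which correlated with each other at r = 0.986. That count is thus not one of 3 independent small heat shock genes. The median log2 change over the 7 was -0.51 for low minus room, -0.45 for high minus room and 0.28 for high minus low, beside -0.04, -0.03 and 0.01 over all tested genes. These medians include the mitochondrial 10 kDa protein, whose own change was the low minus room median. The 6 tested domain models differed in sign for high minus low. Alpha-crystallin B, HSPB8 and evm.TU.Contig283.49 had -0.43, -0.85 and -0.50. The HSPB8 match on Contig119, evm.TU.Contig6.132 and evm.TU.Contig6.131 had 0.28, 1.56 and 1.43. No direction of the family is therefore read from the medians. The 7 that passed the filter do not include evm.TU.Contig6.130.

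**Figure D3:**
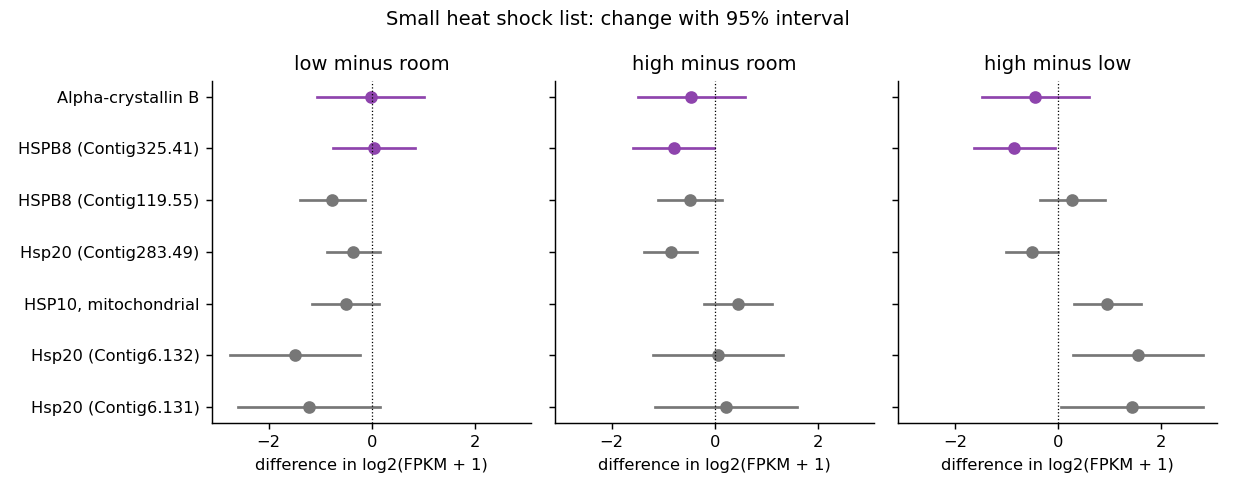
Difference in log2(FPKM + 1) with its 95% interval from limma for the 7 tested gene models of the small heat shock list in the 3 comparisons, with alpha-crystallin B and HSPB8 in purple. Alpha-crystallin B and HSPB8 lie near 0 for low minus room, where the 5 others lie below 0, and none of the differences was called after adjustment.

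The gene model just below the pair in abundance is a further match to HSPB8, evm.TU.Contig119.55, with a mean of 180 FPKM against 263 for HSPB8 on Contig325. It runs from 1165518 to 1172116 on the plus strand of Contig119 and has 2933 bases of model in a span of 6599. It was listed at 177, 260 and 267 FPKM at room, at 137, 158 and 211 at high and at 128, 145 and 135 at low temperature. The low temperature libraries lay below all room temperature libraries, as they did for 8.74% of tested genes. The log2 change for low minus room was -0.76 (SE 0.282, limma adjusted p = 0.501), and for high minus low 0.28 (95% interval -0.34 to 0.91, limma adjusted p = 0.765). The models named HSPB8 thus had low minus room changes of 0.05 on Contig325 and -0.76 on Contig119, and the difference between these changes was not tested. The ratio of the Contig325 model to the Contig119 model was 1.46, 1.92 and 0.719 at room, 1.49, 0.847 and 0.815 at high and 2.31, 2.28 and 2.07 at low temperature. The 3 low temperature ratios were the highest of the 9, a pattern chosen after the values were seen and given no test. Over the 9 libraries the log2 levels of these 2 models correlated at r = 0.0822. How far the authors' counting separates reads of 2 models with the same best match was not tested.

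The remaining Hsp20 models were scarce. The model evm.TU.Contig283.49, which has an Hsp20 domain and no protein name, was at 23.6, 20.9 and 23.9 FPKM at room, 11.2, 14.1 and 11.3 at high and 15.1, 20.4 and 17.5 at low temperature. Its 3 groups did not overlap, with room temperature highest and high temperature lowest. The log2 change for high minus room was -0.86 (SE 0.231, limma adjusted p = 0.347, unadjusted p = 0.00354), and 8.97% of tested genes lay lower at high than at room temperature without overlap. For its other pairs, 8.74% of tested genes had every low temperature library below every room temperature library. In 8.45% every high temperature library lay below every low temperature library. How many genes had all 3 groups apart in this order was not counted. The mitochondrial 10 kDa protein was at 7.19, 9.24 and 7.58 FPKM at room, 10.1, 17.9 and 7.82 at high and 4.37, 5.68 and 5.99 at low temperature. Its high minus low change was 0.96 (SE 0.298, limma adjusted p = 0.241).

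Contig6 holds 3 Hsp20 models in a row. The model evm.TU.Contig6.131 ends 5802 bases before evm.TU.Contig6.132 on the same strand, and evm.TU.Contig6.130 lies 1745 bases before the former on the opposite strand. Contig6.132 was at 1.73, 16.3 and 10.5 FPKM at room, 6.98, 12.0 and 5.07 at high and 1.86, 2.51 and 1.43 at low temperature. Contig6.131 was at 0.719, 10.7 and 7.61 FPKM at room, 4.41, 10.8 and 3.19 at high and 1.25, 1.81 and 1.15 at low temperature. In both models all low temperature libraries and room temperature replicate 1 were low, and high and low temperature did not overlap, as for 8.75% of tested genes in that direction. For high minus low the log2 change was 1.56 (SE 0.572, limma adjusted p = 0.308) in Contig6.132 and 1.43 (SE 0.625, limma adjusted p = 0.402) in Contig6.131. The 2 models correlated at r = 0.986 over the 9 libraries, and whether they share reads was not tested. Contig6.130 had 3, 3 and 7 reads at room, 8, 11 and 5 at high and 0, 1 and 0 at low temperature, too few for the filter. A count of 0 allows up to 3 reads, or 0.13 FPKM in low temperature replicate 1 and 0.223 FPKM in replicate 3, from counting error alone. With Contig6.132, alpha-crystallin B correlated at 0.294 and HSPB8 at -0.168 over the 9 libraries.

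**Figure D4:**
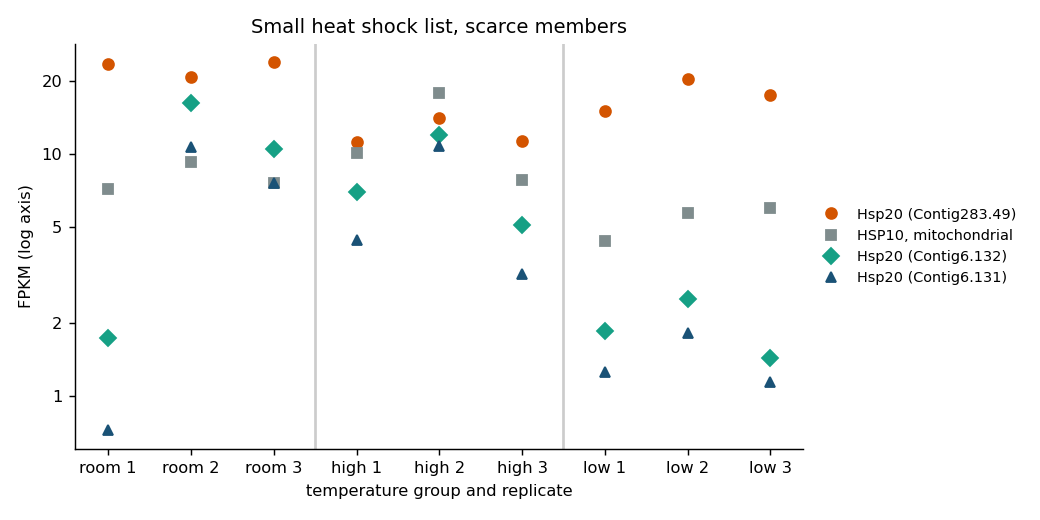
FPKM on a log axis of the 4 scarcer tested gene models of the small heat shock list in each of the 9 libraries, with vertical lines between the temperature groups. The Contig6 models follow each other from library to library and lie at 2.51 FPKM or below in the 3 low temperature libraries and in room temperature replicate 1, while the Contig283 model stays between 11.2 and 23.9 FPKM.

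The members differ in how much libraries of the same temperature scatter. Alpha-crystallin B had a within-group SD of 0.638 on the log2(FPKM + 1) scale. That was above 89.5% of the 200 tested genes nearest to it in mean level, whose median SD was 0.518. Those 200 genes had means from 365 to 24433 FPKM, a far wider range than the 116 to 555 FPKM of those nearest to HSPB8. They are therefore only loosely of like level. HSPB8 had an SD of 0.448, above 52% of the 200 genes nearest to it, and its Contig119 namesake 0.27, above 15.5%. Contig283.49 had an SD of 0.166, above 2.5% of its neighbours in level. The Contig6 models had SDs of 0.883 and 0.976, above 95% and 98%. The scatter of alpha-crystallin B was widest at room temperature, where its highest library was 3.38 times its lowest, against 1.66 times at high and 1.67 times at low temperature. For HSPB8 these ratios were 2.60, 1.53 and 1.19.

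**Figure D5:**
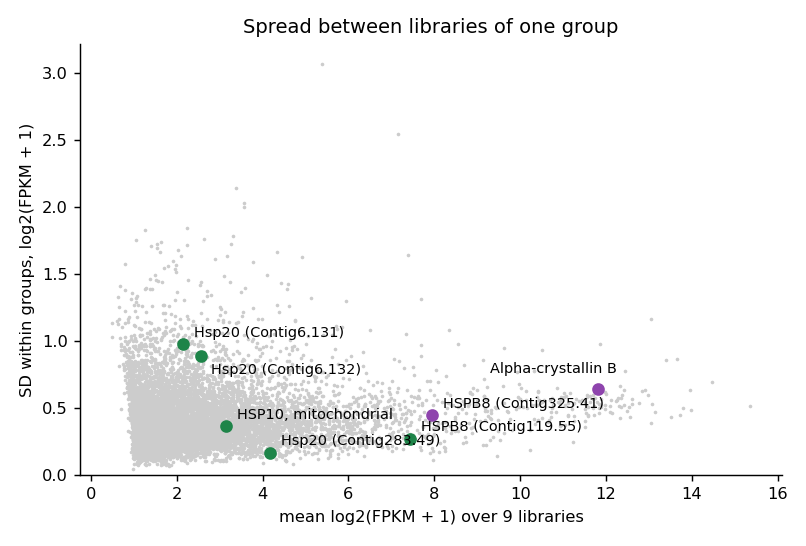
Within-group SD of log2(FPKM + 1) against mean log2(FPKM + 1) over the 9 libraries for 8624 tested gene models (grey), with alpha-crystallin B and HSPB8 in purple and the other members of the small heat shock list in green. The Contig6 models lie high and the Contig283 model low among genes of like level, and alpha-crystallin B is the rightmost of the coloured points.

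The genes with a protein name whose log2 levels followed each member most closely over the 9 libraries were then taken by Pearson r, as a description. These genes share libraries and depth with the member, and for alpha-crystallin B the 95th percentile of r over all tested genes was 0.523. Closest to alpha-crystallin B was glucosamine-6-phosphate isomerase 1, an enzyme of hexosamine metabolism, at r = 0.929, with its lowest value of 5.92 FPKM in room temperature replicate 1 and its highest of 29.2 in room temperature replicate 2. ADP-ribosylation factor 1, a small GTPase of vesicle traffic, followed at 0.868, and the PDZ and LIM domain protein Zasp, a Z-disc protein in flies, at 0.867. Tetraspanin-8 (0.851) and Mpv17-like protein 2 (0.842) came next. The most opposite were coiled-coil domain-containing protein 15 (-0.931) and cyclin-D-binding Myb-like transcription factor 1 (-0.92).

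For HSPB8 the 95th percentile over all tested genes was 0.684. The closest was F-box/WD repeat-containing protein 7, a substrate receptor of a ubiquitin ligase, at r = 0.947. S-methyl-5'-thioadenosine phosphorylase (0.945), an enzyme of methionine salvage, protein Shroom2 (0.94), an actin-binding protein, CTD small phosphatase-like protein 2-A (0.94) and a TAF6-like subunit 6L (0.937) followed. The most opposite were alpha-N-acetylgalactosaminidase (-0.953), a lysosomal enzyme, and V-type proton ATPase subunit d (-0.945), part of the pump that acidifies lysosomes. Alpha-N-acetylgalactosaminidase had its lowest value, 4.51 FPKM, in room temperature replicate 2, where HSPB8 was highest. No gene was named for both members.

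Partners of the small heat shock proteins were taken from lists by protein name. The list of BAG, filamin and selective autophagy genes had 14 gene models, of which 10 were tested. None was called for low minus room or high minus room, and 1 was called higher for high minus low, where 0.151% of all tested genes were called in that direction. It was sequestosome-1, the autophagy receptor p62. It was at 76.8, 74.3 and 66.0 FPKM at room, 82.2, 118 and 97.9 at high and 28.3, 32.3 and 36.9 at low temperature (log2 change high minus low 1.58, SE 0.249, limma adjusted p = 0.0404). The low temperature libraries lay below the other 6. Of all tested genes, 8.74% lay lower at low than at room temperature without overlap, and 8.75% higher at high than at low. Leaving out any 1 of the 6 libraries compared ended this call, with limma adjusted p from 0.071 to 0.187 and a log2 change from 1.45 to 1.70. The median change of the list was 0.06 for low minus room, 0.06 for high minus room and 0.13 for high minus low, beside -0.04, -0.03 and 0.01 over all tested genes. The most abundant member, a match to gamma-aminobutyric acid receptor-associated protein, an Atg8 protein of the autophagosome, had 338 ± 44.7 FPKM at room, 281 ± 63.4 at high and 405 ± 104 at low temperature (SD, n = 3 each). Filamin-C, a client of BAG3 and HSPB8 in mammals, was at 271, 275 and 278 FPKM at room, 320, 330 and 340 at high and 391, 269 and 245 at low temperature. Neither it nor the third by abundance, the GABARAP-like 2 match, was called.

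Outside the naming rule, and chosen after its values were seen, is BAG3 itself, the co-chaperone that recruits HSPB8 in mammals. It was at 4.89, 8.999 and 5.58 FPKM at room, 4.03, 9.66 and 4.41 at high and 2.04, 2.11 and 0.877 at low temperature. All low temperature libraries lay below the other 6, on 20, 15 and 5 reads of BAG3 in low temperature replicates 1, 2 and 3. Groups were likewise apart for 8.74% of tested genes, lower in low minus room, and for 8.75%, higher in high minus low. The test was not passed for low minus room (log2 change -1.48, SE 0.352, limma adjusted p = 0.225) or high minus low (1.34, SE 0.352, limma adjusted p = 0.188). HSPB8 itself was at 279 FPKM or above in those 3 low temperature libraries. BAG3 does not stand for its list. The other tested members outside the rule had low minus room changes that were mostly above 0, and none was called. They were 0.56 for filamin-A, 0.42 for next to BRCA1 gene 1 protein and 0.20 for STIP1 homology and U box-containing protein 1. Light chain 3C had 0.02 and light chain 3B -0.45. Their high minus low changes, in that order, were 0.50, -0.01, -0.45, 0.37 and -0.16.

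The HSP70, HSP90 and DnaJ list had 159 gene models, of which 56 were tested. For low minus room 3 were called lower and 0 higher, for high minus room 0 in each direction and for high minus low 3 higher and 0 lower. Of all tested genes 0.151% were called lower for low minus room, 0% were called for high minus room and 0.151% were called higher for high minus low. The median log2 changes of the list were -0.35, -0.09 and 0.17 in that order, beside -0.04, -0.03 and 0.01 over all tested genes. The HSP70 partner DnaJ homolog subfamily B member 4 was called in both comparisons with low temperature. It was at 40.7, 30.5 and 32.9 FPKM at room, 55.3, 65.5 and 55.7 at high and 9.11, 12.0 and 10.2 at low temperature. It fell by 1.64 on the log2 scale from room to low temperature (limma adjusted p = 0.0276), where alpha-crystallin B and HSPB8 had -0.02 and 0.05, and was higher by 2.39 at high than at low temperature (limma adjusted p = 0.0048). A match to major heat shock 70 kDa protein Ab was also called in both (-2.66, limma adjusted p = 0.0131, and 2.51, limma adjusted p = 0.0151). The adjacent HSP70 model on its contig was called for low minus room (-2.25, limma adjusted p = 0.0422), and the match to heat shock protein 70 B2 for high minus low (2.28, limma adjusted p = 0.0383). All these HSP70 models were near the floor at low temperature, at 1.32 FPKM or below. In replicates 1, 2 and 3 there the Ab match had 11, 12 and 1 reads. The adjacent model had 13, 8 and 2 reads and the B2 match 9, 21 and 16. With 1 FPKM added before the log, the size of their changes depends on that constant. Over the 18 alternatives given below, the low minus room change of the Ab match ran from -3.83 to -2.36. HSP70 genes form a family of similar copies, so how their reads were split between models is uncertain.

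The call of DnaJ homolog subfamily B member 4 for high minus low held when any 1 of the 6 high and low temperature libraries was left out, with a log2 change from 2.31 to 2.49. The other chaperone calls ended without 1 library or another, but each kept its direction in all of these fits. The low minus room call of member 4 ended when any 1 of the 6 room and low temperature libraries was left out, with a log2 change from -1.74 to -1.52 (limma adjusted p from 0.0571 to 0.158). That of the HSP70 model beside the Ab match did too, with a log2 change from -2.39 to -2.00 (limma adjusted p from 0.0924 to 0.184). The Ab match lost its low minus room call without room temperature replicate 1 (log2 change -2.61, limma adjusted p = 0.0759), low temperature replicate 1 (-2.73, limma adjusted p = 0.0743) or low temperature replicate 3 (-2.36, limma adjusted p = 0.0748). It lost its high minus low call without low temperature replicate 1 (2.58, limma adjusted p = 0.0529) or replicate 3 (2.22, limma adjusted p = 0.0646). The HSP70 B2 match lost its call without high temperature replicate 1 (2.38, limma adjusted p = 0.0821) or without low temperature replicate 1 (2.12, limma adjusted p = 0.17), 2 (2.36, limma adjusted p = 0.13) or 3 (2.35, limma adjusted p = 0.104). The most abundant members of the list were not called. Member 5 of DnaJ subfamily B was at 257 ± 30.9, 269.6 ± 97.8 and 278 ± 44.8 FPKM at room, high and low temperature (SD, n = 3 each). Heat shock cognate 71 kDa protein, the constitutive HSP70, was at 249 ± 25.9, 238 ± 59.2 and 216 ± 20.4 FPKM, and HSP 90-beta at 100.2 ± 1.94, 78.1 ± 12.6 and 76.7 ± 16.6 FPKM. In every library alpha-crystallin B exceeded each of these 3, while HSPB8 lay above DnaJ homolog subfamily B member 5 in some libraries and below it in others.

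The one match to heat shock factor, the transcription factor that drives heat shock genes, had a mean of 0.521 FPKM, from 0.0989 to 0.747, and was not tested. The list pattern also took in a heat shock factor 2-binding protein at a mean of 0.0687 FPKM. Of 3 gene models for p38 and MAPKAP kinases, which phosphorylate small heat shock proteins in mammals, 2 were tested and 0 called, against 0.151%, 0% and 0.162% of all tested genes in the 3 comparisons, a count from which nothing is read about these kinases. MAP kinase-activated protein kinase 2 had a mean of 4.55 FPKM and mitogen-activated protein kinase 14 of 4.07 FPKM over the 9 libraries.

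Contractile and Z-disc genes, whose proteins are clients of alpha-crystallin B in vertebrate muscle, numbered 75, of which 38 were tested. In each comparison 0 of them were called, where 0.151%, 0% and 0.162% of all tested genes were, so these counts do not set the list apart. Their median log2 changes were 0.05 for low minus room, -0.05 for high minus room and -0.05 for high minus low, beside -0.04, -0.03 and 0.01 over all tested genes. The most abundant were myosin regulatory light chain A, adductor muscle actin and myosin essential light chain, with means of 43754, 24433 and 16902 FPKM. The summed level of the list ran from 90990.0 to 115246 FPKM at room, 72778 to 185666 at high and 71181 to 124120 at low temperature. High temperature replicate 3 held the highest sum, and by FPKM alpha-crystallin B was highest of its group there, at 3903 FPKM. By share of assigned reads alpha-crystallin B was instead lowest of its group there, at 0.483% against 0.732% and 0.547% in replicates 1 and 2. The order thus depends on the scaling between libraries. Without high temperature replicate 3 the high minus room change of alpha-crystallin B was -0.66 (limma adjusted p = 0.633) and its high minus low change -0.64 (limma adjusted p = 0.702). Without low temperature replicate 3 its low minus room change was -0.01 (limma adjusted p = 0.998) and its high minus low change -0.44 (limma adjusted p = 0.779). For HSPB8 the high minus low change was -0.87 without high temperature replicate 3 (limma adjusted p = 0.472) and -0.90 without low temperature replicate 3 (limma adjusted p = 0.392).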

How the data were processed

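RNA of adductor muscle was sequenced in 9 libraries, 3 per temperature group, grouped by their labels. The authors deposited 1 table of FPKM values with gene model positions, lengths and protein matches; per the submitters' processing notes HISAT2 2.0.4 and HTSeq 0.9.1 were used, while build and FPKM settings are not stated there. FPKM times gene model length gave whole multiples of 1 read (largest distance from a whole number 3.66e-08), from which totals of 11716140 to 16229040 assigned reads per library followed. The divisor behind FPKM differed from these totals, so the deposited values carry a scaling between libraries whose method is not given.

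Gene models with a mean of at least 1 FPKM (8624 of 28864) entered limma 3.58.1 (R 4.3.3) as log2(FPKM + 1), with group means, a mean-variance trend and Benjamini-Hochberg adjustment over all tested models; the procedure was tested on simulated data. Correlations used exact two-sided permutation. Intervals come from the limma fits and cover only the spread among these libraries, while floors on reads cover counting error only. Alternatives changed the pseudocount, filter, scaling, weights, variance model, replicate block and libraries, and a voom fit used the recovered reads.

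Named genes were the pair, the tested members of the small heat shock list, the 3 most abundant tested and all called genes of each partner list, the 5 most alike and 2 most opposite named genes, and the neighbouring gene models. Lists were taken by protein name or Pfam domain. Members and lists were chosen with earlier results of these data known.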

Additional observations from a re-analysis of the deposited data

How the results depend on the processing

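Neither alpha-crystallin B nor HSPB8 was called in any comparison under any of the 18 alternatives run, and 0 small heat shock genes were called under each. The sign of the alpha-crystallin B value for low minus room was not fixed: it was -0.02, but 0.0306 with FPKM from total assigned reads, 0.076 with upper quartile scaling, 0.20 with quantile normalization and 0.0296 with array weights, and from -0.58 to 0.30 with single libraries left out. For HSPB8 leaving out single libraries gave -0.25 to 0.43. High minus low stayed below 0 in all 18 alternatives, from -0.65 to -0.25 for alpha-crystallin B and from -0.99 to -0.68 for HSPB8, whose unadjusted limma p was under 0.05 in 11 of them and whose lowest adjusted p was 0.189. High minus room ran from -1.01 to -0.13 and from -1.10 to -0.41.

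The number of genes called for low minus room, 13, became 0 with no filter on low values, 8 with a minimum mean of 5 FPKM, 7 with FPKM from total assigned reads, 8 with quantile normalization, 31 with array weights, 8 with voom, 2 without both high and low temperature replicate 3, and 0 to 12 with single libraries left out. For high minus low, 14 became 4 with no filter, 89 with array weights, 1 without those 2 libraries and 6 to 15 with single libraries left out. For high minus room, 0 became 0 to 2 with single libraries left out. At an unadjusted limma p under 0.05 405 genes were higher and 420 lower in that comparison. The cause of these shifts was not tested.

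With single libraries left out, r of HSPB8 ran from -0.24 to 0.38 with the contractile sum and from -0.21 to 0.32 with the percent of reads in the 50 most abundant models. The high minus room changes of Contig6.132 and Contig6.131 ran from -0.72 to 0.61 and from -0.64 to 0.74, and that of BAG3, -0.14, ran from -0.482 to 0.0898 with single libraries left out and was 0.01 without both replicates 3. The settings for genes other than the pair were applied after seeing the data. The sequestosome-1 call held in 7 of 18, those of DnaJB4 in 6 of 18 for low minus room and 17 of 18 for high minus low, major heat shock 70 kDa protein Ab in 11 and 12 of 18, the adjacent HSP70 in 5 of 17 and HSP70 B2 in 8 of 17. The deviations of same-numbered libraries from their group means had correlations from -0.103 to 0.242, and those of libraries of different number from -0.224 to 0.12. The highest values, 0.242, 0.186 and 0.152, were of same-numbered libraries. These values do not settle whether the numbers pair the libraries. With the replicate number as a block, 10, 0 and 18 genes were called for low minus room, high minus room and high minus low, and the HSPB8 high minus low change was -0.85 (limma adjusted p = 0.356).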
